A study of Homo sapiens with 12 samples.

Results

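The 36 genes described here encode enzymes that activate and oxidize fatty acids, the thiolase ACAT1 that is shared with ketone body metabolism, and 3 genes that bind fatty acids or regulate the pathway. They were taken from a fixed list of names, to which no threshold on measured values was applied, and which was drawn up with earlier results of these data known. All 36 were matched to a single identifier among the 57500 genes of the count tables, and all 36 passed the filter on low counts in every comparison. By their known location 20 are mitochondrial enzymes, 6 are peroxisomal, 3 (ECH1, ECI2 and ACAD11) are found in both organelles, 4 are acyl-CoA synthetases that activate the fatty acid before oxidation, and 3 (PPARA, FABP1 and ANGPTL4) bind fatty acids or regulate the pathway.

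RNA was sequenced from HepG2, an established line of human hepatocarcinoma cells, in 3 groups with 4 libraries each. WT are wild-type control cells, shTST cells carry an shRNA against TST (rhodanese, the mitochondrial enzyme that detoxifies cyanide), and overTST cells overexpress TST from a lentiviral vector with a codon-optimized coding sequence under a CMV promoter. All 12 libraries came from cells kept for 24 h in normal medium, which contains 400 µM glycine. The transduced cells were selected with an antibiotic, no clones are named, and the sources used here give no empty-vector control, so that transduction and selection cannot be told apart from TST itself. The question was how the transcripts of this pathway differ when the cells hold less or more of a cyanide-detoxifying enzyme.

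Total counts were 28866175 to 45120508 per library in WT, 27527854 to 33865386 in shTST and 22911380 to 27414142 in overTST, so every overTST library was shallower than every WT library. TST was at 47.2, 47.5, 52.8 and 48.5 CPM in WT replicates 1 to 4, 32.97, 33.5, 36.5 and 33.5 in shTST and 51.8, 56.0, 61.6 and 62.1 in overTST. Its log2 fold change came to −0.52 (edgeR adjusted p = 3.2e-06, SE 0.055) with shTST and 0.24 (edgeR adjusted p = 0.00384, SE 0.062) in overTST, and after a correction for gene length the overTST value was 0.10 (edgeR adjusted p = 0.201). The codon-optimized transgene need not be counted on the native gene. CPM are counts scaled by library size, with TMM factors over all 12 libraries, and SE is the standard error of a log2 fold change. The hepatocyte markers checked, among them ALB, AFP, APOB and HNF4A, were expressed in every group. Of 4 leukocyte markers, PTPRC and CD3E had 1 count each over all 12 libraries. The sum of the 4 was nonetheless 1330.3 to 1745 CPM over the groups, nearly all of it LYZ. Reads from mitochondrially encoded genes were 6.91% to 11.98% of the counts in WT, 6.84% to 8.65% in shTST and 10.8% to 11.7% in overTST.

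Fatty acids enter oxidation as acyl-CoA esters, which acyl-CoA synthetases make. Long chains cross into mitochondria as carnitine esters and are shortened there in rounds of dehydrogenation, hydration, dehydrogenation and thiolysis, with electrons passed to the respiratory chain. Peroxisomes take very long and branched chains, and begin with oxidases that make hydrogen peroxide. In liver the pathway feeds ketone body synthesis, and the nuclear receptor PPARA, which fatty acids activate, is the best known inducer of its genes.

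With shTST, 6 of the 36 genes (16.7%) passed an adjusted p of 0.05 or less in edgeR's quasi-likelihood test with Benjamini-Hochberg adjustment, beside 16.1% of the 14584 genes tested. ACAT1, ACSL1, HADH and ECH1 rose and ACSL3 and ACSL5 fell, so 4 of 36 were higher (6.69% of all genes tested) and 2 lower (9.40%). Of the 20 mitochondrial enzymes 2 passed, HADH and ACAT1, and of the 6 peroxisomal enzymes none did, while 3 of the 4 acyl-CoA synthetases passed. The libraries of the groups did not overlap for 8 members, 5 above and 3 below WT, beside 19.1% of all genes. The share of members called was thus near that of all genes. Upper-quartile normalization called 8 members, beside 16.7% of all genes, with 6 higher (8.8% of all genes) and 2 lower (7.89%). Among all genes called it moved the share of higher ones from 41.6% to 52.7%.

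In overTST, 16 of the 36 (44.4%) passed, beside 33.9% of the 14421 genes tested. Of these, 8 rose (ACADVL, ACAD8, ECHS1, ACAT1, ECI1, ECH1, ACAA1 and DECR2), beside 15.7% of all genes, and 8 fell (ACADM, ACADSB, ACAD10, EHHADH, ACSL1, ACSL3, ACSL4 and PPARA), beside 18.2%. Mitochondrial enzymes gave 5 higher and 3 lower of 20, and peroxisomal enzymes gave 2 higher and 1 lower of 6. The groups did not overlap for 14 members, 6 above and 8 below WT, beside 30.4% of all genes. The median log2 fold change of the 36 was 0.0026, beside 0.0019 over all genes, and with shTST it was 0.018, beside 0.0040. In neither comparison with WT did a called member pass 1.5-fold. Both comparisons use the same 4 WT libraries, so their values are given side by side without a measure of their likeness.

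**Figure D1:**
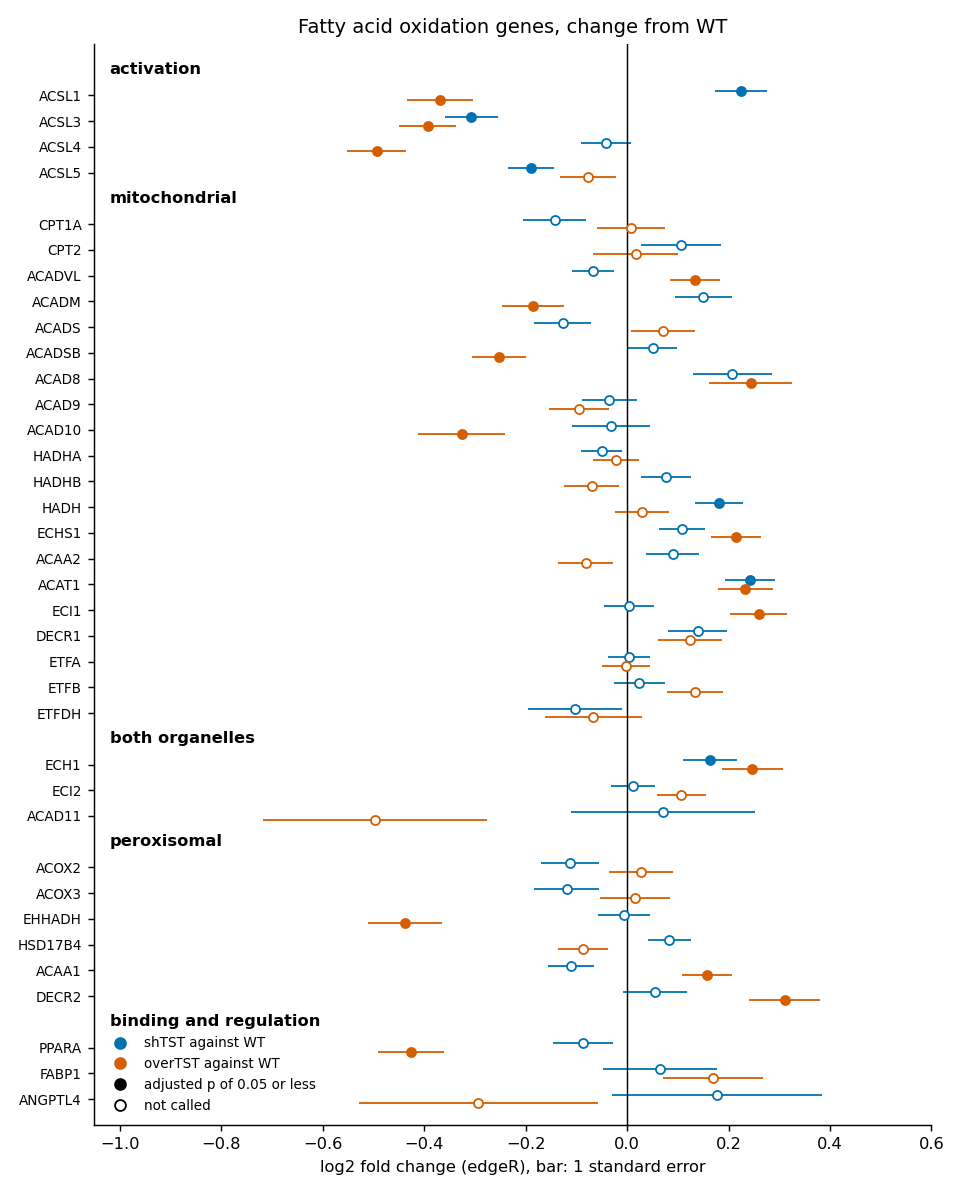
Log2 fold change against WT of the 36 genes (x axis), with 1 standard error, for shTST and overTST, grouped by place in the pathway; filled points had an adjusted p of 0.05 or less. ACSL1 has filled points on opposite sides of 0, and the carnitine and electron transfer genes have none.

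Levels in WT, per length of exons (RPKM, from CPM and the deposited exonic length), ran over more than 2 orders of magnitude. That length counts all annotated exons of a gene, 10452 bases for CPT2. Levels and ratios between genes therefore depend on the annotation. The highest were ECHS1, the short-chain enoyl-CoA hydratase, at 107 ± 5.93 RPKM and HADHA, the large subunit of the trifunctional protein, at 104 ± 2.53 (SD, n = 4 each), which differed by less than the SD of ECHS1. ECH1 followed at 80.1 ± 4.57 RPKM and ACSL4 at 68.4 ± 3.16. The carnitine palmitoyltransferases were far lower, with CPT1A at 4.36 ± 0.311 and CPT2 at 1.30 ± 0.134 RPKM. ACAD11 and ANGPTL4 were lowest, at 0.242 ± 0.0282 and 0.487 ± 0.0384 RPKM. Median levels in WT were 16.3 RPKM over the 20 mitochondrial and 9.32 over the 6 peroxisomal enzymes.

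**Figure D2:**
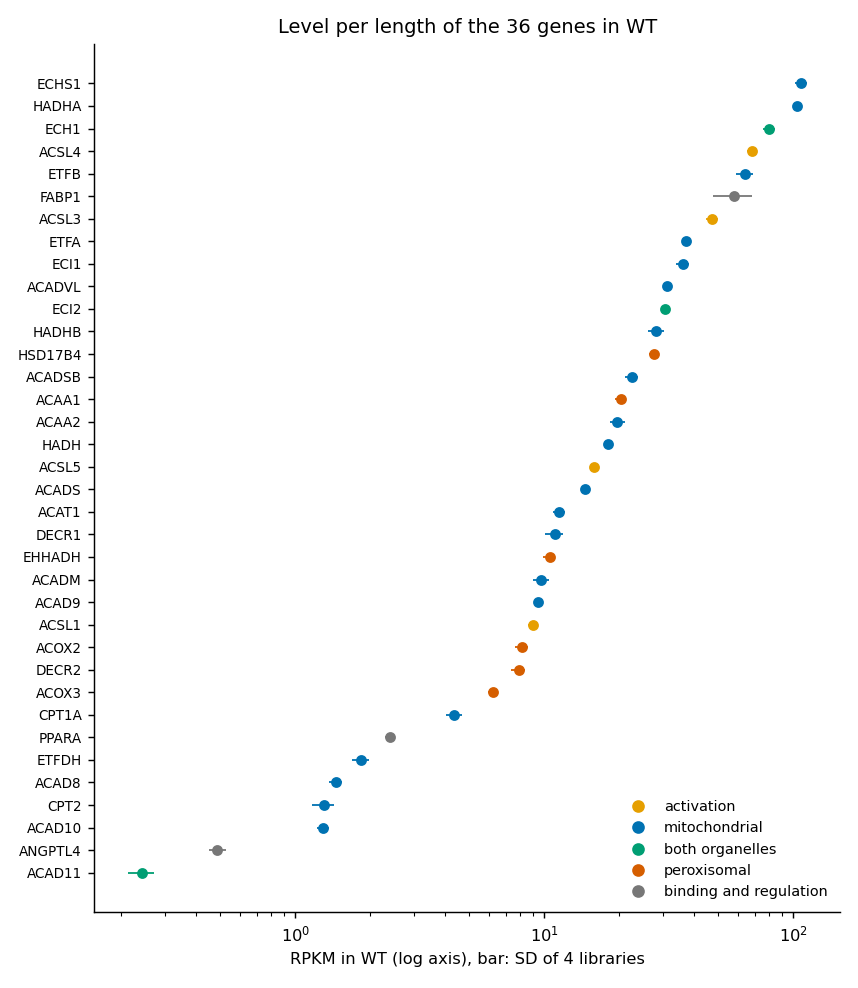
RPKM in WT (log axis, mean and SD of 4 libraries) of the 36 genes in order of level, coloured by place in the pathway. ECHS1 and HADHA are above 100 RPKM, and ACAD11 and ANGPTL4 are below 1.

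An acyl-CoA synthetase had the largest called change of the 36 genes in each comparison with WT, ACSL3 with shTST and ACSL4 in overTST, and the 4 did not move together. ACSL1 (ENSG00000151726, chr4:184755595-184826818, GRCh38), the synthetase that hepatocytes use for oxidation and for triglyceride synthesis, was at 57.6, 58.6, 56.2 and 53.4 CPM in WT replicates 1 to 4, 68.0, 69.8, 60.9 and 65.2 in shTST and 49.7, 44.9, 39.7 and 40.6 in overTST. Every shTST library was above and every overTST library below all WT libraries. The log2 fold change came to 0.22 (edgeR adjusted p = 0.00476, SE 0.051) with shTST and −0.37 (edgeR adjusted p = 0.000121, SE 0.065) in overTST, and the lines differed from each other by 0.59 (edgeR adjusted p = 2.86e-07, SE 0.063), shTST over overTST, a fold of 1.51. ACSL1 was the only member called in opposite directions in the 2 comparisons with WT and the only one past 1.5-fold between the lines. After the length correction the difference between the lines was 0.53, under 1.5-fold.

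ACSL3 (ENSG00000123983, chr2:222860934-222944639), the synthetase of the endoplasmic reticulum and lipid droplets, was at 321, 349, 334 and 365 CPM in WT replicates 1 to 4, 303, 253, 275 and 275 in shTST and 259.6, 232, 275 and 276 in overTST. All 8 libraries of the changed lines were below all WT libraries. It fell in both lines, by 0.31 with shTST (edgeR adjusted p = 0.000425, SE 0.052) and by 0.39 in overTST (edgeR adjusted p = 1.2e-05, SE 0.057) on the log2 scale. The lines did not differ from each other at the threshold, with a log2 difference of 0.09 (edgeR adjusted p = 0.27, SE 0.058).

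ACSL4 (ENSG00000068366, chrX:109624244-109733403), which prefers arachidonic acid, was at 459, 411, 444 and 440.1 CPM in WT replicates 1 to 4, 463, 412, 399 and 429 in shTST and 354, 296, 299.8 and 296 in overTST. The shTST libraries overlapped those of WT and the overTST libraries lay below all others, with replicate 1 the highest of them. It fell in overTST, with a log2 fold change of −0.49 (edgeR adjusted p = 9.63e-07, SE 0.058) that was −0.56 without overTST replicate 1, while with shTST the value was −0.04 (edgeR adjusted p = 0.618, SE 0.049). ACSL5 (ENSG00000197142, chr10:112374018-112428380), found at the outer mitochondrial membrane and the endoplasmic reticulum, was called in the other line and was at 64.2, 67.3, 67.5 and 69.3 CPM in WT replicates 1 to 4, 59.2, 58.7, 57.4 and 60.0 in shTST and 69.2, 60.5, 61.5 and 63.0 in overTST. All shTST libraries were below WT, and the overTST libraries overlapped WT and were all above shTST. Its log2 fold change came to −0.19 (edgeR adjusted p = 0.00657, SE 0.046) with shTST and −0.08 (edgeR adjusted p = 0.295, SE 0.055) in overTST. For ACSL5 the lines did not differ at the threshold, at −0.11 (edgeR adjusted p = 0.0874, SE 0.05), shTST over overTST.

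The summed level of the 4 synthetases was 140.4 ± 2.66 RPKM in WT, 129 ± 7.13 in shTST and 106 ± 6.50 in overTST (SD, n = 4 each). ACSL1 made 6.40% ± 0.370 of this sum in WT, 8.16% ± 0.538 in shTST and 6.54% ± 0.575 in overTST. ACSL4 was the largest part in each group, with 48.7% ± 1.96, 51.5% ± 0.700 and 45.5% ± 1.91. ACSL3 gave 33.7% ± 1.71, 29.6% ± 1.14 and 33.8% ± 2.58, and ACSL5 gave 11.3% ± 0.328, 10.8% ± 0.489 and 14.1% ± 0.254. The ACSL1 share in every shTST library was above that in every WT library, and the ACSL5 share in every overTST library was above that in all others. These are shares of transcript levels per length, and they carry no test.

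**Figure D3:**
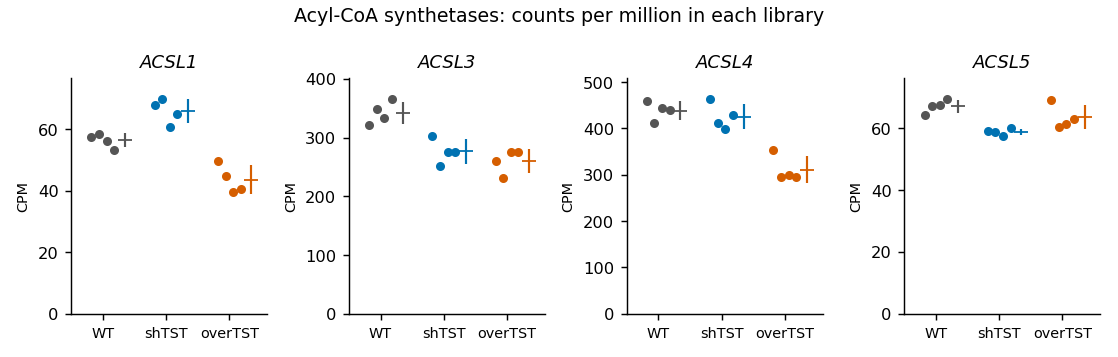
CPM of the 4 acyl-CoA synthetases in each library, with the mean and SD of each group beside the points. ACSL1 lies above WT in shTST and below it in overTST, ACSL3 lies below WT in both, ACSL4 in overTST and ACSL5 in shTST.

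Promoters are shown for the genes that carry these patterns, ACSL3, which fell in both lines, ACAT1, which rose in both, and ACSL1, which moved in opposite directions, with FABP1, a well-known PPARA target, beside them. Each is 250 bases before to 50 after a transcript start, 5′ to 3′, from RefSeq (GRCh38.p14). RefSeq promoters were at hand for 28 of the 36 genes. In ACSL3 and ACAT1 the capitals mark CCAAT on either strand. In ACSL1 and FABP1 they mark a direct repeat of AGGTCA with 1 base between the copies, with up to 2 mismatches on either strand. PPARA binds this kind of element with RXR. The ACSL1 window also holds CCAAT on the other strand, as ATTGG 215 to 211 bases before the start, left in small letters. The promoters lie at chr2:222860786-222861085 (ACSL3, plus strand), chr11:108121317-108121616 (ACAT1, plus strand, the upstream of 2 starts), chr4:184805504-184805803 (ACSL1, minus strand, the last of 5 starts in the direction of the gene) and chr2:88128013-88128312 (FABP1, minus strand).
ACSL3: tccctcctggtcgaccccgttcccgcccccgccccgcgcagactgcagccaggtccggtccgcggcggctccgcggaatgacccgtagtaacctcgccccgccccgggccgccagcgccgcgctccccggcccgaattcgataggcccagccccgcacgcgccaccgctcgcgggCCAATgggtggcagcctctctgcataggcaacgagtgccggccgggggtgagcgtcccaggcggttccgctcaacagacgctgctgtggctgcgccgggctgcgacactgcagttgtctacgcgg
ACAT1: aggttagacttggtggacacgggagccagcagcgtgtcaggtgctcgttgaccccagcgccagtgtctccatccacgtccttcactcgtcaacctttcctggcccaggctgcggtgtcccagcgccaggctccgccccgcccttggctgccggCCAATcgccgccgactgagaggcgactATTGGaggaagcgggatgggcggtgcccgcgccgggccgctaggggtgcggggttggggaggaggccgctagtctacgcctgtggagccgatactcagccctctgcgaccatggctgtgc
ACSL1: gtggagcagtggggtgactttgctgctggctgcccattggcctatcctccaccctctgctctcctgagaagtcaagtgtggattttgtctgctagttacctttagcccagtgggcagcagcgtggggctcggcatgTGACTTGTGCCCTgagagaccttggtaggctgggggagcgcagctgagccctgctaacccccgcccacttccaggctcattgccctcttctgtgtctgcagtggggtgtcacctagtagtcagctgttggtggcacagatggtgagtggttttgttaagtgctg
FABP1: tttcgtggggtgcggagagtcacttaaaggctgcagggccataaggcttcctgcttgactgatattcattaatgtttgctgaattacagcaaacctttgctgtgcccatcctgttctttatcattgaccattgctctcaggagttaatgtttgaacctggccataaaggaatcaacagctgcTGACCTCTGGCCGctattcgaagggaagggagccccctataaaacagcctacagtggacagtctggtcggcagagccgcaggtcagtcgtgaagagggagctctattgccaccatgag

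The direct repeat was found in 2.97% of the 35116 promoters searched, and in 3 of the 40 promoters of the 28 genes, 1 each of ACSL1, FABP1 and ACAA2. In ACSL1 it lies 114 to 102 bases and in FABP1 68 to 56 bases before the start. Of these 3 genes ACSL1 was called in both comparisons with WT, and FABP1 and ACAA2 in neither. The sequence TCAAGGTCA, the element of the receptor ERRA, with up to 1 mismatch, was found in 5.84% of all promoters and in 1 of the 40, that of ACSL5, and it overlaps the half-site of the direct repeat, AGGTCA. The letters CCAAT were searched after the sequences had been seen, and stood in 34.6% of all promoters and in 8 of the 40. The ACSL3 and ACAT1 windows held neither of the receptor elements. They were 74.0% and 68.0% G and C and held 41 and 26 CG pairs, beside 58.0% and 4 in the ACSL1 window. That ACSL1 window was taken from 5 listed starts because it held the direct repeat, so the contrast covers this window only. Which start these cells use was not tested.

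Of the carnitine shuttle, neither of the 2 transferases passed the test in either line. CPT1A, the transferase of the outer membrane that malonyl-CoA inhibits, was at 27.0, 31.1, 26.9 and 29.5 CPM in WT replicates 1 to 4, 25.96, 25.1, 25.1 and 27.7 in shTST and 30.2, 27.3, 29.9 and 27.7 in overTST, and its groups overlapped throughout. The log2 fold change came to −0.14 (edgeR adjusted p = 0.126, SE 0.063) with shTST and 0.01 (edgeR adjusted p = 0.943, SE 0.067) in overTST. CPT2, its partner on the inner membrane, had 0.11 (edgeR adjusted p = 0.389, SE 0.079) and 0.02 (edgeR adjusted p = 0.896, SE 0.084). The carrier between them, SLC25A20, which is not among the 36, rose with shTST by 0.23 (edgeR adjusted p = 0.0366, SE 0.074) on the log2 scale, every shTST library lying above every WT library, and had 0.08 (edgeR adjusted p = 0.492, SE 0.083) in overTST.

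The acyl-CoA dehydrogenases, which open each round, split in overTST. ACADVL, the enzyme for very long chains, rose by 0.13 and ACAD8, the isobutyryl-CoA dehydrogenase of valine breakdown, by 0.24, while ACADM, for medium chains, had −0.18, ACADSB, for short branched chains, −0.25 and ACAD10 −0.33 on the log2 scale, all called. ACADSB was at 141, 145, 128 and 147 CPM in WT replicates 1 to 4, 150.0, 139, 139.5 and 152 in shTST and 125, 114, 118 and 114 in overTST. All overTST libraries of ACADSB were below all others, at a log2 fold change of −0.25 (edgeR adjusted p = 0.000668, SE 0.053), and shTST overlapped WT at 0.05 (edgeR adjusted p = 0.524, SE 0.048). None of the 7 mitochondrial dehydrogenases was called with shTST. ACADS, for short chains, and ACAD9, which also serves the assembly of complex I, were called in neither comparison with WT, with log2 fold changes of −0.13 and −0.04 in shTST and 0.07 and −0.09 in overTST. Without WT replicate 1, 2 or 4 or without overTST replicate 4, ACADVL, ACADM and ACAD8 were no longer called in overTST. The mitochondrial enzymes called there fell from 8 to 5. Over all genes these fits called 4107 to 4327 of 14555 to 14641, beside 4893 of 14421 in the main fit. ACADVL was also lost without overTST replicate 3 and ACADM without overTST replicate 2. Over all these losses of the dehydrogenases the edgeR adjusted p-values were 0.0511 to 0.146.

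Of the later steps of the mitochondrial spiral, ECHS1 and ACAT1 rose in overTST, and HADH and ACAT1 with shTST. ECHS1 was at 177, 163, 185 and 168 CPM in WT replicates 1 to 4, 185, 181, 195 and 185 in shTST and 197, 198, 199.6 and 208 in overTST. Every overTST library was above every WT library, and the shTST libraries overlapped WT. Its log2 fold change came to 0.21 (edgeR adjusted p = 0.0016, SE 0.049) in overTST and 0.11 (edgeR adjusted p = 0.109, SE 0.045) with shTST, and the overTST call was lost after the length correction, at 0.05. HADH, the hydroxyacyl-CoA dehydrogenase for shorter chains, was at 55.9, 53.4, 56.6 and 55.1 CPM in WT replicates 1 to 4, 64.6, 59.6, 62.0 and 64.3 in shTST and 57.8, 56.3, 53.5 and 57.8 in overTST. Here the shTST libraries were above all WT and overTST libraries, at a log2 fold change of 0.18 (edgeR adjusted p = 0.0109, SE 0.047), and overTST had 0.03 (edgeR adjusted p = 0.705, SE 0.053).

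ACAT1 (ENSG00000075239, chr11:108121516-108147776), the thiolase that makes and splits acetoacetyl-CoA, was at 67.1, 60.9, 66.9 and 61.4 CPM in WT replicates 1 to 4, 79.3, 71.8, 76.8 and 74.9 in shTST and 75.1, 71.0, 77.5 and 77.1 in overTST. All 8 libraries of both lines were above all WT libraries. It rose by 0.24 (edgeR adjusted p = 0.00206, SE 0.049) with shTST and by 0.23 (edgeR adjusted p = 0.00175, SE 0.054) in overTST on the log2 scale, with a difference between the lines of 0.01 (edgeR adjusted p = 0.904, SE 0.05). ACAA2, the general mitochondrial thiolase, and HADHA and HADHB, the subunits of the trifunctional protein that handles long chains, were called in neither comparison with WT, with log2 fold changes of −0.05 to 0.09 with shTST and −0.08 to −0.02 in overTST. The level of HADHA was 3.69 ± 0.216 times that of HADHB per length in WT, 3.37 ± 0.142 times in shTST and 3.81 ± 0.192 times in overTST (SD, n = 4 each).

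Unsaturated fatty acids need auxiliary enzymes. ECI1, the mitochondrial enoyl-CoA isomerase, was at 111, 112, 126 and 117 CPM in WT replicates 1 to 4, 114, 112, 125 and 116 in shTST and 125, 147, 143 and 143 in overTST. In overTST 3 of the 4 libraries were above all WT libraries and replicate 1 was not. The log2 fold change came to 0.26 (edgeR adjusted p = 0.000871, SE 0.056) in overTST and 0.00 (edgeR adjusted p = 0.964, SE 0.049) with shTST. DECR1, the mitochondrial dienoyl-CoA reductase, was called in neither, at 0.14 and 0.12.

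The electron transfer flavoprotein, ETFA and ETFB, and its ubiquinone oxidoreductase ETFDH carry electrons from the dehydrogenases to the respiratory chain, and none was called against WT in edgeR's test. ETFA had log2 fold changes of 0.00 (edgeR adjusted p = 0.955, SE 0.041) with shTST and −0.00 (edgeR adjusted p = 0.974, SE 0.047) in overTST. ETFB had 0.02 (edgeR adjusted p = 0.795, SE 0.05) and 0.13 (edgeR adjusted p = 0.0649, SE 0.056), and the overTST value was called under 10 of 20 alternatives, limma-voom and the corrections for gene length and GC content among them. ETFDH had −0.10 (edgeR adjusted p = 0.497, SE 0.092) and −0.07 (edgeR adjusted p = 0.626, SE 0.096), and 10.9% of its exon bases overlap PPID on the opposite strand. ETFA was at 0.582 ± 0.0298 times the level of ETFB per length in WT, 0.573 ± 0.0237 times in shTST and 0.529 ± 0.0326 times in overTST (SD, n = 4 each).

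Of the 3 enzymes found in both organelles, ECH1, a dienoyl-CoA isomerase, was called in both lines. It was at 190.1, 186, 206 and 209 CPM in WT replicates 1 to 4, 204, 213, 244 and 223 in shTST and 204, 232, 243 and 258 in overTST. Every group overlapped WT, through shTST replicate 1 and overTST replicate 1. The log2 fold change came to 0.16 (edgeR adjusted p = 0.037, SE 0.053) with shTST and 0.25 (edgeR adjusted p = 0.00255, SE 0.06) in overTST, and the shTST call rested on 4 single libraries, WT replicates 1 and 2 and shTST replicates 3 and 4, and was lost when any of them was left out, at log2 fold changes of 0.12 to 0.16 and edgeR adjusted p-values of 0.0798 to 0.145. ECI2, another enoyl-CoA isomerase, had 0.01 (edgeR adjusted p = 0.888, SE 0.044) and 0.11 (edgeR adjusted p = 0.0884, SE 0.048). ACAD11 had only 462 counts over the 12 libraries and shares exon bases with an overlapping gene on which its reads may be counted, so its values, 0.07 (edgeR adjusted p = 0.832, SE 0.18) and −0.50 (edgeR adjusted p = 0.0854, SE 0.22), are uncertain.

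Among peroxisomal enzymes the 2 bifunctional proteins differed. EHHADH (ENSG00000113790, chr3:185190624-185281990), the bifunctional enzyme for straight chains and dicarboxylic acids and a known PPARA target, was at 52.0, 45.9, 48.5 and 51.1 CPM in WT replicates 1 to 4, 50.1, 49.2, 48.4 and 48.8 in shTST and 41.9, 32.0, 33.7 and 38.1 in overTST. The shTST libraries lay within WT and every overTST library lay below both groups. It fell in overTST, with a log2 fold change of −0.44 (edgeR adjusted p = 5.96e-05, SE 0.072), and with shTST the value was −0.01 (edgeR adjusted p = 0.952, SE 0.051). HSD17B4, the bifunctional enzyme for branched chains and bile acid precursors, was called in neither comparison with WT, at 0.08 (edgeR adjusted p = 0.191, SE 0.042) and −0.09 (edgeR adjusted p = 0.176, SE 0.048).

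DECR2, the peroxisomal dienoyl-CoA reductase, was at 29.6, 30.9, 33.6 and 33.5 CPM in WT replicates 1 to 4, 29.6, 34.0, 34.0 and 34.6 in shTST and 33.8, 42.2, 41.8 and 40.4 in overTST. All overTST libraries were above all WT libraries, with replicate 1 closest to them, and the log2 fold change came to 0.31 (edgeR adjusted p = 0.00135, SE 0.07), beside 0.05 (edgeR adjusted p = 0.601, SE 0.062) with shTST. DECR2 shares 14.1% of its exon bases with NME4 on the same strand, which has 89346 counts to its 12365. ACAA1, the peroxisomal thiolase, rose in overTST by 0.16 (edgeR adjusted p = 0.0148, SE 0.049) and had −0.11 (edgeR adjusted p = 0.105, SE 0.046) with shTST. Without WT replicate 4 or overTST replicate 2 the ACAA1 call was lost, at edgeR adjusted p-values of 0.0522 and 0.0524. The oxidases ACOX2, which acts on bile acid precursors, and ACOX3, which acts on branched chains, were called in neither, at −0.11 and −0.12 with shTST and 0.03 and 0.02 in overTST.

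PPARA (ENSG00000186951, chr22:46150521-46243756), the nuclear receptor of the pathway, was at 33.3, 32.2, 29.8 and 32.2 CPM in WT replicates 1 to 4, 27.7, 31.2, 31.5 and 29.5 in shTST and 24.3, 22.2, 24.2 and 24.1 in overTST. Every overTST library was below every other library, and shTST overlapped WT. The log2 fold change came to −0.43 (edgeR adjusted p = 2.25e-05, SE 0.065) in overTST and −0.09 (edgeR adjusted p = 0.34, SE 0.059) with shTST. With 13219 bases of exons PPARA is the longest member, and after the length correction the overTST value was −0.24 (edgeR adjusted p = 0.00392), still called.

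FABP1, the fatty acid binding protein of liver and a PPARA target, was at 119.8, 122, 169 and 162 CPM in WT replicates 1 to 4, 161, 111, 184 and 141 in shTST and 131, 151, 167 and 193 in overTST. Its libraries spread widely within each group and the groups overlapped, with log2 fold changes of 0.07 (edgeR adjusted p = 0.747, SE 0.11) and 0.17 (edgeR adjusted p = 0.196, SE 0.098). ANGPTL4, a secreted inhibitor of lipoprotein lipase and a PPARA target, was at 1.29, 1.25, 1.22 and 1.07 CPM in WT replicates 1 to 4, 1.82, 1.04, 1.22 and 1.43 in shTST and 0.858, 0.889, 0.789 and 1.45 in overTST. It had 433 counts over the 12 libraries, its groups overlapped, and its log2 fold changes of 0.18 (edgeR adjusted p = 0.615, SE 0.21) and −0.29 (edgeR adjusted p = 0.361, SE 0.24) have wide errors.

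**Figure D4:**
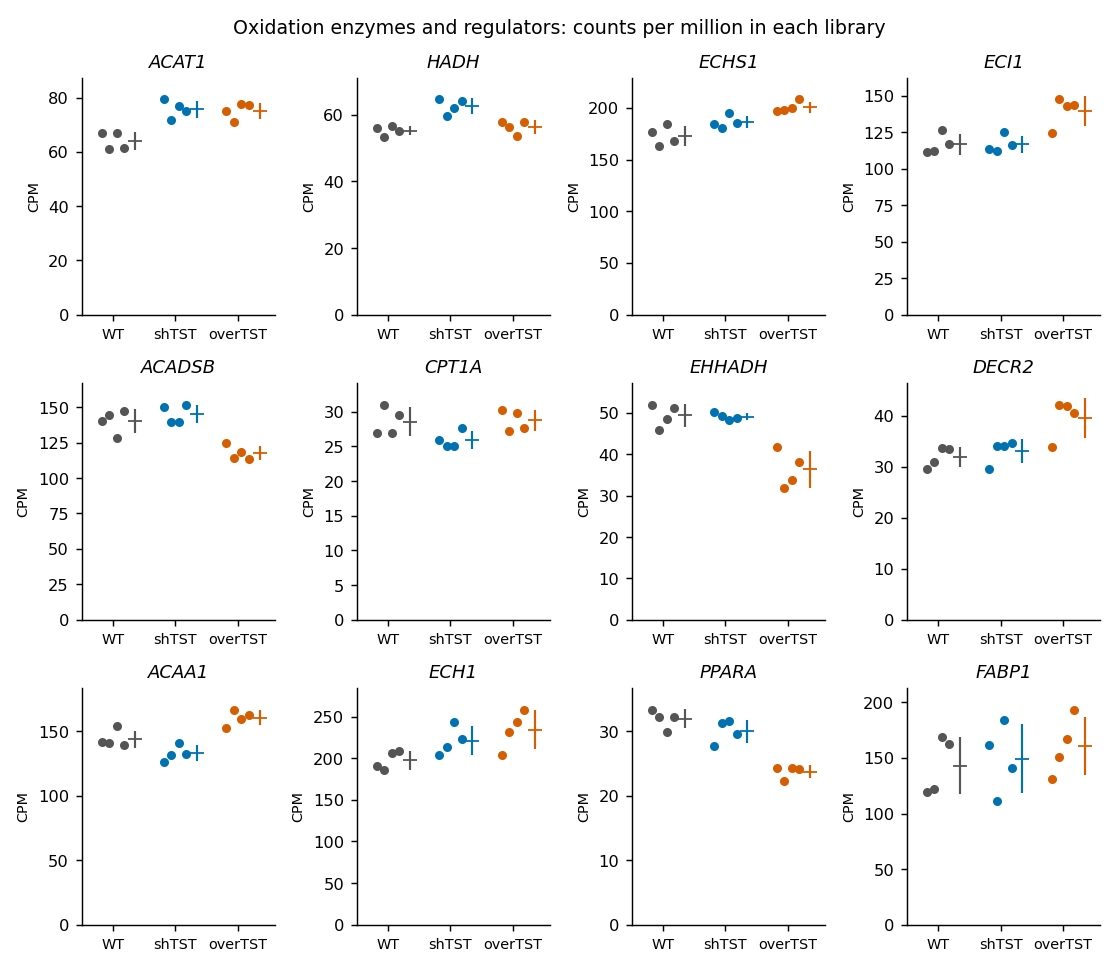
CPM of 12 members in each library, with the mean and SD of each group beside the points. ACAT1 lies above WT in both lines, HADH in shTST, and ACADSB, EHHADH and PPARA lie below WT in overTST; the FABP1 groups overlap.

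The lines were also compared with each other, in a fit of all 12 libraries. Between shTST and overTST 17 of the 36 (47.2%) passed, beside 33.0% of the 14883 genes tested, 12 higher in shTST (16.9% of all genes) and 5 lower (16.1%). With a trend on GC content taken out of each library, 15 passed, 8 higher (14.4%) and 7 lower (14.7%). Higher in shTST were ACSL1, ACSL4, PPARA and EHHADH, at log2 differences of 0.59, 0.45, 0.34 and 0.43, and the mitochondrial ACADM (0.33), ACADSB (0.30), ACAD10 (0.29), ACAA2 (0.17), HADH (0.15) and HADHB (0.15), with HSD17B4 (0.17) and ACAD11 (0.57). Lower in shTST were ACAA1 (−0.27), ECI1 (−0.26), DECR2 (−0.26), ACADVL (−0.20) and ACADS (−0.20). ACADM, which was called only in overTST against WT, was at 49.2, 48.3, 41.7 and 46.5 CPM in WT replicates 1 to 4, 53.9, 48.3, 52.2 and 51.8 in shTST and 42.0, 40.3, 41.9 and 39.2 in overTST, and every shTST library was above every overTST library. The calls of ACADS, HADHB, HADH and ACAA2 were lost without shTST replicate 1, which took the mitochondrial enzymes called from 9 to 5. ACAD11 was also lost there. Over all genes that fit called 4065 of 15075, beside 4907 of 14883 in the main fit. Over all losses of these members with a library left out, the edgeR adjusted p-values were 0.0513 to 0.102. ACADS and HADH were lost without shTST replicate 4, HADH and HADHB without overTST replicate 3, HADHB without overTST replicate 2, ACADS without overTST replicate 4, and ACAD11 in each of these and without shTST replicate 2 or 3.

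The changes were correlated with gene length and with GC content. In overTST the Spearman correlation of the log2 fold change with the length of exons was −0.404 across the 14421 genes and −0.407 across the 36 members, which share the same 8 libraries and are not independent. With shTST it was −0.0900 across all genes. The median length of the members was 4741.5 bases (1617 to 13219), beside 4479 over all genes tested in overTST. A lowess trend on length was therefore taken out of each library as an alternative. After it 15 members were called in overTST, 8 higher, beside 14.2% of all genes, and 7 lower, beside 14.3%, and 13 of these 15 were called before. With shTST 7 were called, 5 higher (8.05% of all genes) and 2 lower (9.88%), the 6 called before and ACADM. In overTST ECHS1 went from 0.21 to 0.05 (edgeR adjusted p = 0.421), and ECH1 and ACAD10 were also lost, at edgeR adjusted p-values of 0.0515 and 0.0805. ECI2 and ETFB were gained. ACSL1, ACSL3, ACSL4 and EHHADH kept their calls, at −0.30, −0.30, −0.42 and −0.41. Between the lines ACADS, ACAD10, ACAD11 and HSD17B4 were lost and CPT1A and ETFB gained. Log2 fold changes correlated with GC content across all genes at −0.242 with shTST, 0.147 in overTST and −0.335 between the lines, where the correlation with length was 0.357. A trend on GC content was taken out in the same way, an alternative chosen after seeing the data. It called 7 members with shTST, the 6 called before and ECHS1, beside 15.5% of all genes. In overTST it called 17, beside 35.2%, with ACADVL and ACADM lost (edgeR adjusted p = 0.0908 and 0.0804) and ECI2, DECR1 and ETFB gained. Between the lines it called 15, beside 29.1%, of which 12 were called before. The calls of ACADS, HADHB, HADH, ACAA2 and HSD17B4 were lost, at edgeR adjusted p-values of 0.0884 to 0.492, those of ACADS at −0.051 and HSD17B4 at 0.045 on the log2 scale, and the mitochondrial enzymes called went from 9 to 6. ECI2, ACSL5 and ETFB were gained there. Whether these trends are technical was not tested.

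**Figure D5:**
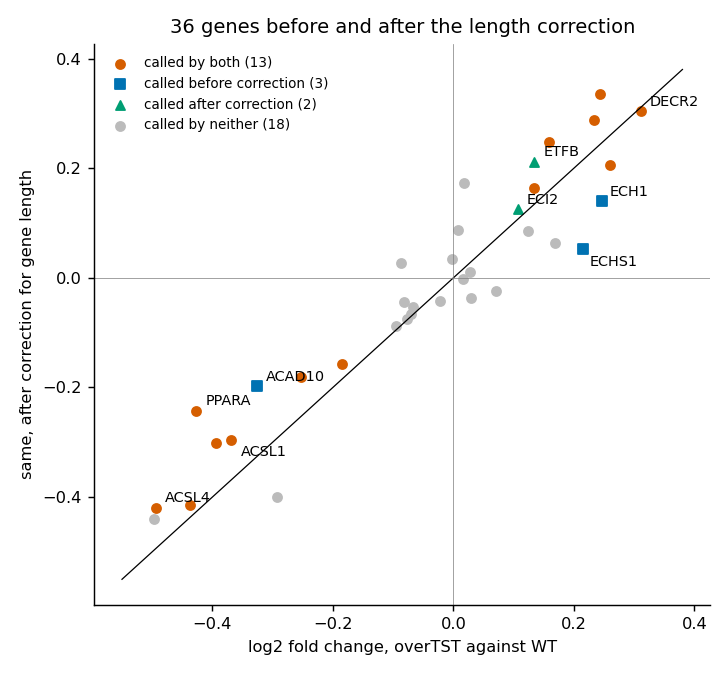
Log2 fold change of the 36 genes in overTST against WT before (x axis) and after (y axis) the correction for gene length, with the line of equality. The points of PPARA, ECHS1, ECH1 and ACAD10 lie closer to 0 after it; 13 genes were called by both, 3 before it and 2 after it.

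Of 9 ketone body genes outside the 36, 7 were tested. Called were 2 with shTST, beside 16.1% of all genes, and 3 in overTST, beside 33.9%. With shTST 2 fell, the transporter SLC16A6 (−0.57 (edgeR adjusted p = 0.000434, SE 0.097)) and the hydroxybutyrate dehydrogenase BDH1 (−0.31 (edgeR adjusted p = 0.00193, SE 0.063)), and OXCT1, which reactivates ketone bodies, had 0.29 (edgeR adjusted p = 0.155, SE 0.14). In overTST SLC16A6 (0.40 (edgeR adjusted p = 0.000875, SE 0.087)) and the cytosolic dehydrogenase BDH2 (0.34 (edgeR adjusted p = 0.0142, SE 0.1)) rose and the monocarboxylate transporter SLC16A1 fell (−0.31 (edgeR adjusted p = 0.00012, SE 0.054)). SLC16A6 thus moved in opposite directions in the lines, the reverse of ACSL1 in each, with −0.97 (edgeR adjusted p = 8.01e-08, SE 0.095) between them.

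Of 33 other genes of fatty acid import and oxidation 28 were tested. With shTST 3 rose and 5 fell, among them the fatty acid transporters SLC27A4 (−0.32 (edgeR adjusted p = 0.000116, SE 0.047)) and SLC27A2 (−0.22 (edgeR adjusted p = 0.0143, SE 0.061)). In overTST 4 rose and 6 fell, among them the peroxisomal importer ABCD3 (−0.47 (edgeR adjusted p = 1.3e-06, SE 0.057)) and ACACB (−0.61 (edgeR adjusted p = 3.72e-06, SE 0.08)), which makes the malonyl-CoA that inhibits CPT1A. The called genes were 8 of 28 with shTST, beside 16.1% of all genes, and 10 of 28 in overTST, beside 33.9%. Median log2 fold changes of the list were −0.012 with shTST and −0.016 in overTST.

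Of 23 targets and partners of PPARA 19 were tested with shTST, where 2 rose and 3 fell, beside 16.1% of all genes called, and 18 in overTST, where 2 rose and 4 fell, beside 33.9%. The overTST share was thus near that of all genes. The targets PDK4 and CYP4A11 had 2 counts and 1 count, and FGF21 had 9, over the 12 libraries. LPIN2, a phosphatidate phosphatase, fell in both lines (−0.35 (edgeR adjusted p = 0.00115, SE 0.066) and −0.65 (edgeR adjusted p = 4.11e-08, SE 0.06)), and FABP5, another fatty acid binding protein, rose in both (0.25 (edgeR adjusted p = 0.00144, SE 0.05) and 0.54 (edgeR adjusted p = 1.77e-07, SE 0.056)). The coactivator PPARGC1A fell in overTST (−0.43 (edgeR adjusted p = 0.00169, SE 0.1)) and TXNIP rose with shTST (0.33 (edgeR adjusted p = 0.00262, SE 0.069)). RXRA, the partner of PPARA, was called in neither, at 0.03 and 0.07.

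Of 9 hepatocyte markers 4 rose and 2 fell with shTST, where 16.1% of all genes were called, and 2 rose and 2 fell in overTST, where 33.9% were. Their summed level was 23443 to 26435 CPM in WT, 24668 to 28924 in shTST and 21704 to 26219.6 in overTST. Fibroblast markers summed to 21.5 to 25.2 CPM in WT, 17.0 to 19.4 in shTST and 15.9 to 17.9 in overTST, nearly all of it PDGFRB, and endothelial markers to 2.51 to 3.29, 1.81 to 2.16 and 3.39 to 3.91 CPM. The leukocyte list summed to 1599 to 1677, 1330.3 to 1486 and 1499 to 1745 CPM, nearly all of it LYZ. Their part in the changes of the 36 genes was not tested. In bulk RNA, fewer cells of a state and less RNA per cell cannot be told apart.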

How the data were processed

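The authors deposited whole-number read counts per Ensembl gene for each of the 12 HepG2 libraries, without normalization. The submitters' processing notes name Trimmomatic 0.36, STAR 2.5.2b, featureCounts of Subread 1.5.2 and GRCh38, and the use of strand is not given in the sources used here. From these counts, genes were filtered with edgeR 4.0.16 (filterByExpr), scaled by TMM and tested by its quasi-likelihood method, with p-values adjusted after Benjamini and Hochberg over all genes tested and a threshold of 0.05, with each line fitted with WT on 8 libraries and the direct comparison on all 12. Standard errors are the log2 fold change over the square root of F. A prior count of 2 entered only the log2 CPM used for the length and GC trends and for correlations between libraries. Software was R 4.3.3 and Python 3.11.15. Procedures were tested on simulated counts. Overlapping genes were found by exon coordinates.

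Members given in every library were, in each comparison with WT, the 10 called members with the smallest p, with PPARA, CPT1A, FABP1 and ANGPTL4 (ACADM was added after its values were seen). From each pathway list the 3 genes with the smallest p were named, OXCT1 among them, apart from genes that are not reported here; SLC25A20, RXRA, PDK4, CYP4A11, FGF21 and the ACSL1 and FABP1 promoters were chosen after their values or sequences were seen. The members and lists were chosen with earlier results of these data known. The study's methods define independent experiments as run on separate days, and the labels do not say which libraries share a day, so p-values measure the spread between these libraries. The counts of the 18 pairs of replicates differed by more than sampling noise (chi-square per gene 3.78 to 38.9). Alternatives were DESeq2 1.42.0, limma-voom 3.58.1, other normalizations and filters, removal of mitochondrially encoded genes, a fit of all libraries, trends with gene length and GC content, the replicate number as a block, and leaving out each library. The correction for GC content was chosen after seeing the data.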

Additional observations from a re-analysis of the deposited data

Results flagged for a closer look

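In each group of 4 libraries the highest or lowest value was set against the others for the 36 genes and TST, 111 groups in all, of which chance would set apart about 1 in 20. A library stood far from the other 3 in 6 of them. ACSL4 was at 354 CPM in overTST replicate 1, beside 296 to 299.8 in the others, and without it the log2 fold change against WT was −0.56. PPARA was at 22.2 CPM in overTST replicate 2, beside 24.1 to 24.3, and without it the log2 fold change was −0.40. DECR2 was at 29.6 CPM in shTST replicate 1, beside 34.0 to 34.6, and without it the log2 difference between shTST and overTST was −0.21. CPT2 was at 14.3 CPM in overTST replicate 4, beside 13.5 to 13.7. ANGPTL4 was at 1.45 CPM in overTST replicate 4, beside 0.789 to 0.889. TST itself was at 36.5 CPM in shTST replicate 3, beside 32.97 to 33.5, and without it the log2 fold change was −0.55. ACSL4, PPARA, DECR2 and TST kept their calls without these libraries.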

How the results depend on the processing

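No called member changed sign under any alternative run. Of the 6 members called with shTST, 5 kept the call under every alternative, ECH1 being the exception. Of the 16 called in overTST, 9 kept it throughout, among them ACSL1, ACSL3, ACSL4, PPARA, EHHADH, ACADSB, ECI1, DECR2 and ACAT1. With a library left out, the mitochondrial enzymes called were 2 to 4 with shTST, 5 to 9 in overTST and 5 to 10 between the lines. Over all genes these fits called 1513 to 2336 of 14727 to 14884 with shTST and 3979 to 5263 of 14550 to 14676 in overTST. Between the lines these fits called 3986 to 5265 of 15059 to 15090. The main fits called 2346 of 14584, 4893 of 14421 and 4907 of 14883 genes. Upper-quartile normalization called 4 of 20 mitochondrial enzymes with shTST, beside 16.7% of all genes. After the length correction TST in overTST was at 0.097 on the log2 scale and with the replicate block added at 0.094, neither called. Same-numbered libraries of different groups correlated weakly in their deviations (−0.0527 to 0.0801), and the numbers were not taken to pair the libraries. A shTST or overTST library was set against all libraries of another group in 12 cases, shTST libraries entering more than once. Its own number correlated best in 6 of these cases, which does not settle pairing. The replicate block called 9 members with shTST, 4 mitochondrial and 1 peroxisomal, beside 2980 of the 14584 genes tested. The main fit called 2346 of these genes. With the length correction the block called 10 members, 5 mitochondrial and 1 peroxisomal, beside 3125 genes. The block alone called 18 members in overTST, beside 5166 of 14421 genes, and 18 between the lines, beside 5232 of 14883. The causes of these shifts were not tested. Of the members not called in overTST, ETFB was called under 10 of 20 alternatives, FABP1 and ECI2 under 4 each and DECR1 under 1, and with shTST ACADM was called under 6, ACAD8 and ECHS1 under 3 each. ACAD11 and ANGPTL4 had the fewest counts of the members and the largest standard errors.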
